A study of Mus musculus with 40 samples.

Results

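The comparison set tumors treated with a bifunctional protein, which joins an antibody to PD-L1 with a trap for TGF-β, against tumors treated with the antibody to PD-L1 alone. It used 20 of the 40 tumor libraries of the study, chosen by their treatment labels, with 10 libraries in each group, and asked what the trap adds when PD-L1 is blocked in both groups. All mice were Balb/C females of 8 to 12 weeks that carried EMT-6, a line of mouse mammary carcinoma cells, after injection of 0.1 mL of cells into the right mammary pad. The bifunctional group received 492 µg of the protein and the anti-PD-L1 group 400 µg of antibody, both intravenously on days 0, 1 and 2. Day 0 was 20 days after inoculation, at a mean tumor volume near 400 mm3, and tumors were collected on day 6. Neither group was untreated, the tumors came from 1 cell line in 1 strain, and the library numbers C0479 to C0488 and C0469 to C0478 follow the treatments, so a step that ran along those numbers and the treatment cannot be told apart.

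PD-L1 is a surface ligand that restrains T cells through their receptor PD-1, and antibodies to it release that restraint. TGF-β is a secreted factor that drives fibroblasts to make collagen and other matrix, slows division of many epithelial cells and dampens T cells and natural killer cells. A trap made of the receptor's outer domain binds the factor before it reaches cells. A whole tumor holds cancer cells, fibroblasts, vessels and immune cells, and the pieces taken here can carry overlying skin, fat and body wall muscle.

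Total RNA was depleted of ribosomal RNA and primed at random, and the 20 libraries held 22793641 to 27658217 expected counts each. The totals of the groups did not differ beyond the spread (two-sided permutation test, p = 0.956). Bifunctional libraries had 19900.1 ± 689 genes detected and anti-PD-L1 libraries 19338 ± 186 (SD, n = 10 each; two-sided permutation test, p = 0.0188, or 0.132 adjusted over the 7 library properties compared). Structural RNA took 13.3% to 18.0% of counts in bifunctional libraries and 11.7% to 17.0% in anti-PD-L1 libraries. Markers of luminal mammary cells, checked because the line is a mammary carcinoma, did not move one way. Krt8 stood at 221 to 500.5 CPM (median 422) in bifunctional and 404 to 889.6 CPM (median 533) in anti-PD-L1 tumors, Krt18 at medians of 31.6 CPM in bifunctional and 29.3 CPM in anti-PD-L1 tumors, and Epcam at medians of 10.7 CPM in bifunctional and 3.83 CPM in anti-PD-L1 tumors. Of 16 luminal genes 2 were called higher, Gata3 at 1.85 (adjusted p = 0.0281) and Cdh1 at 1.51 (adjusted p = 0.0452), and 1 lower, Krt8 at -0.58 (adjusted p = 0.0219), with 14 above 0 and a median log2 fold change of 1.26. Without C0479 and C0484, libraries described below, none of them was called and the median was 0.48. Of 318 tested genes on 7 immune lists 150 were called higher and 0 lower, and they are not described further. In bulk tumors fewer cells of a type and less RNA per cell cannot be told apart, here and for every class below.

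Of 14592 genes tested, 3233 differed between the groups at an adjusted p under 0.05 in edgeR's quasi-likelihood test, 1662 higher and 1571 lower in bifunctional tumors. The background was therefore 11.4% of genes called higher and 10.8% called lower. Among the falls were many genes of cell division and protein production, and among the rises genes of the extracellular matrix. Every bifunctional library lay above every anti-PD-L1 library for 7 genes (0.0480% of those tested) and below for 21 (0.144%). Counts of changed genes depended strongly on single libraries. Without C0479 they dropped to 1662 genes, without C0484 to 1791, without C0470 to 2131 and without C0474 to 1914, whereas 4434 were called without C0482. The falls, 1571 with all 20 libraries, numbered 869 without C0474, 944 without C0479 and 953 without C0469. The balance of rises and falls differed between scales and tests: 51.4% of the calls were rises in edgeR on counts scaled by trimmed means (TMM), 98.3% in limma on log2(TPM + 1), a scale that moved the median gene by 0.16, and 21.03% in limma once each library was centred on its median. On that centred scale 2.58% of genes were called higher and 9.7% lower, and the median log2 fold change over all genes was -0.071. With all 40 libraries in the fit, 69.2% of 1970 calls were rises. All values below are on the TMM scale in counts scaled to the size of the library (CPM), and each therefore gives a level relative to the other genes of its library.

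Genes of skeletal muscle, skin and fat were high in a few libraries, most of them bifunctional, and low in the rest. Muscle and keratinocyte genes together took 1.25% of counts in C0479 and 1.08% in C0484, both bifunctional, against 0.0135% to 0.0887% in the other 18 libraries. The groups' means, 0.256% ± 0.482 in bifunctional and 0.0298% ± 0.0209 in anti-PD-L1 libraries (SD, n = 10 each), did not differ beyond the spread (two-sided permutation test, p = 0.262, adjusted 0.371). Acta1, the actin of skeletal muscle fibres, had 0.198, 1.45 and 1082 CPM in bifunctional tumors, against 0.189, 0.434 and 77.2 CPM in anti-PD-L1 tumors as lowest, median and highest library, an order kept for every gene below. Krt5, the keratin of basal skin cells, had 0.0875, 4.20 and 478.8 CPM in bifunctional tumors, against 0.323, 1.48 and 4.54 CPM in anti-PD-L1 tumors. Adipoq, the adipocyte hormone adiponectin, had 0.871, 7.65 and 103 CPM in bifunctional tumors, against 1.49, 4.60 and 17.5 CPM in anti-PD-L1 tumors. For all 3 the 2 groups overlapped and only a few bifunctional libraries were high. Krt5 was called higher with a log2 fold change of 4.83 ± 1.25 (SE, adjusted p = 0.0165), and Acta1 and Adipoq did not pass, at 4.38 (adjusted p = 0.0534) and 1.72 (adjusted p = 0.0927). Of the muscle genes tested 6 of 10 were called higher, of the keratinocyte genes 9 of 12 and of the adipocyte genes 13 of 17, with median log2 fold changes of 3.87, 3.56 and 2.01. Without C0479 and C0484 none of these 3 lists had a called gene, and their medians were 0.19, 0.11 and 0.81.

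**Figure D1:**
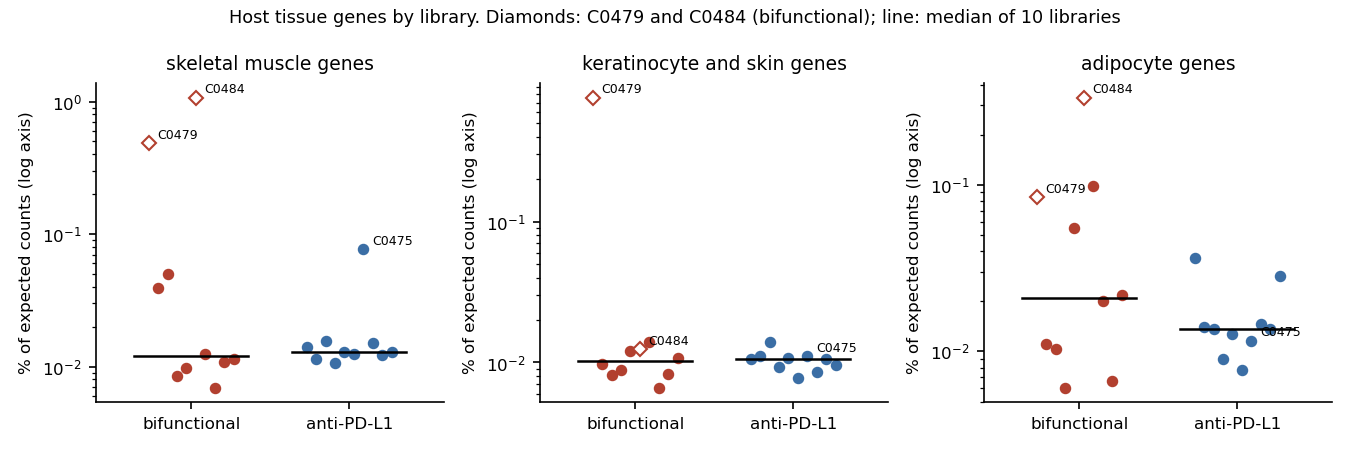
Share of expected counts, in percent on a log axis, taken by genes of skeletal muscle, keratinocytes and adipocytes in each of the 10 bifunctional and 10 anti-PD-L1 libraries, with the group median as a line. Open diamonds are C0479 and C0484, which reach 1.07% for muscle and 0.761% for keratinocyte genes, and C0475 is the anti-PD-L1 library highest in muscle genes at 0.0776%.

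The edgeR test was therefore also run without C0479 and C0484, while promoter shares, counts of genes without overlap and TPM fits used all 20 libraries. That fit of 18 libraries called 727 of 14651 genes, 281 higher (1.92%) and 446 lower (3.04%), and 719 of them were among the 3233 called with all 20, each in the same direction. Without the 4 libraries richest in muscle and keratinocyte genes (C0479, C0484, C0475 and C0481) 47 genes were called, 34 higher (0.232%) and 13 lower (0.0885%). Leaving out the 2 richest libraries of each group left 76 calls, and with the muscle, keratinocyte and adipocyte scores as covariates 931 genes were called (6.38%), 2.55% of all higher and 3.83% lower. Fewer samples also mean fewer calls, and the part of host tissue in each of these drops was not tested.

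**Figure D2:**
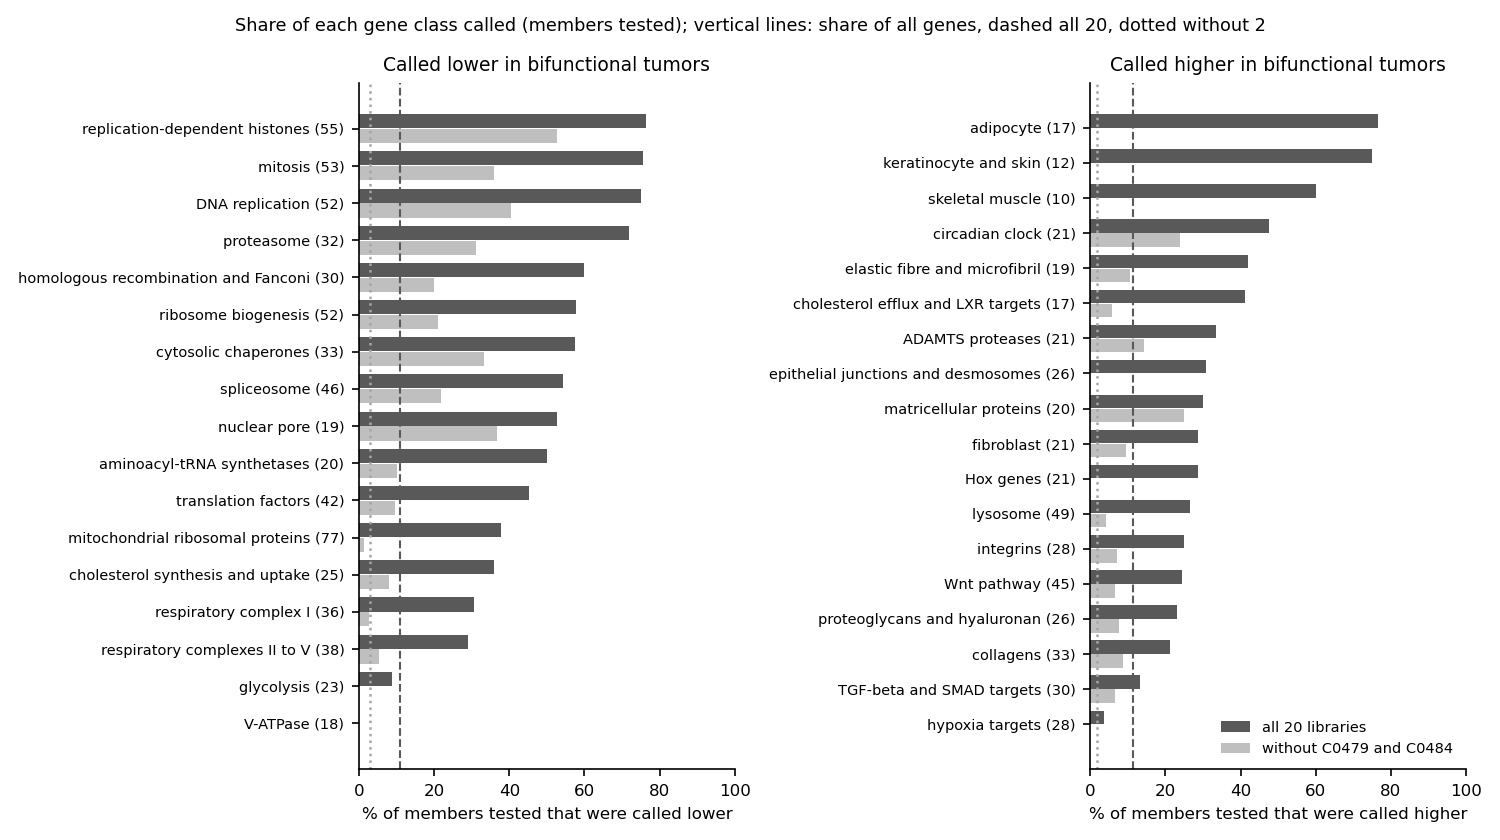
Percent of the tested members of each gene class called lower (left) or higher (right) in bifunctional tumors, with the number of members tested in parentheses, for all 20 libraries (dark bars) and without C0479 and C0484 (light bars). Vertical lines give the share of all genes, 10.8% lower and 11.4% higher for 20 libraries (dashed), and 3.04% and 1.92% without the 2 libraries (dotted). Histone and replication genes have the longest light bars among falls, and the muscle, keratinocyte and adipocyte bars vanish.

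Genes of mitosis were lower in bifunctional tumors. Of 53 tested genes 40 fell and 0 rose, against the background of 10.8%, with a median log2 fold change of -0.36 beside 0.019 over all genes. Without C0479 and C0484 19 of them fell (background 3.04%) and the median was -0.27. Ndc80, a part of the kinetochore complex that grips microtubules, had 22.8, 34.6 and 42.8 CPM in bifunctional tumors, against 42.3, 45.8 and 56.6 CPM in anti-PD-L1 tumors. Its partner Nuf2 had 27.4, 34.1 and 43.0 CPM in bifunctional tumors, against 38.4, 44.7 and 54.9 CPM in anti-PD-L1 tumors. In bifunctional tumors 9 libraries were below the lowest anti-PD-L1 library for Ndc80 and 8 for Nuf2, and the log2 fold changes were -0.48 ± 0.089 (SE, adjusted p = 0.00648) and -0.44 ± 0.082 (SE, adjusted p = 0.00670). Mad2l1, a protein of the spindle checkpoint, had 25.1, 31.6 and 35.5 CPM in bifunctional tumors, against 35.6, 40.2 and 49.5 CPM in anti-PD-L1 tumors. The 2 groups did not overlap, though the highest bifunctional and the lowest anti-PD-L1 library were nearly level, and the log2 fold change was -0.38 ± 0.076 (SE, adjusted p = 0.00759). Cdc20, the activator of the anaphase promoting complex, had 68.4, 106 and 136 CPM in bifunctional tumors, against 129.7, 140.4 and 165 CPM in anti-PD-L1 tumors, with 9 bifunctional libraries below the whole anti-PD-L1 group and a log2 fold change of -0.46 ± 0.10 (SE, adjusted p = 0.00788). Mki67, the proliferation antigen and the most abundant member that did not pass, had 213, 289 and 341 CPM in bifunctional tumors, against 202, 299.8 and 394 CPM in anti-PD-L1 tumors, with a log2 fold change of -0.084 ± 0.10 (SE, adjusted p = 0.537) and groups that overlapped throughout.

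The promoters of this class are shown because the genes fell together and many hold the same short elements. The CHR element (TTTGAA, either strand) was in 70.0% of the 40 mitosis promoters against 12.2% of the 8471 tested genes with 1 promoter in the RefSeq table, and the CCAAT box (CCAAT, either strand) in 77.5% against 39.0%. Among genes called lower CHR was in 16.5% and among genes called higher in 12.0%. These shares have no test, and a match is not a bound site. The promoters of Cdc20 (chr4:118437294-118437593, minus strand), Top2a, topoisomerase II of dividing cells (chr11:99024140-99024439, minus strand), and Hmmr, a spindle protein (chr11:40733388-40733687, minus strand), are the 3 of the falling mitosis genes with the smallest adjusted p that hold both elements. Each runs 5′ to 3′ over 300 bases of build GRCm38.p6, 250 before and 50 after the start, with CHR and CCAAT elements in capitals:
Cdc20: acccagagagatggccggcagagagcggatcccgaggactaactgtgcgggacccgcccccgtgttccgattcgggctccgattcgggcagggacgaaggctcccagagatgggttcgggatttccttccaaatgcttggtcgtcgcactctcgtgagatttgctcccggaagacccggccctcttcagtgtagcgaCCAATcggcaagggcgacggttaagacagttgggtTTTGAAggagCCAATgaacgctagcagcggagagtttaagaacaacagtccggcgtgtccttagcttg
Top2a: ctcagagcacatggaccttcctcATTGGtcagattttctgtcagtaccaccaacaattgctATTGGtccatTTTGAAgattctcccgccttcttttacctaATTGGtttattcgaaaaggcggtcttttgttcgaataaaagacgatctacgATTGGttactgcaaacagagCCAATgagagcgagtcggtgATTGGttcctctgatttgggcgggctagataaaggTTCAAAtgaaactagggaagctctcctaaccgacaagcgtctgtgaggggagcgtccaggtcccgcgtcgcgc
Hmmr: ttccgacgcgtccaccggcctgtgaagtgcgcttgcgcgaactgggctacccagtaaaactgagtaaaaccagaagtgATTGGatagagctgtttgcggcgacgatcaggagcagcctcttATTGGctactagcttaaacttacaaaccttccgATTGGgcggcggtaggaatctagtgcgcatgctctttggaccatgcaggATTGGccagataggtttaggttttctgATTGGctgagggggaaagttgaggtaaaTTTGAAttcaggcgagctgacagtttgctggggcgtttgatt
Top2a had 296, 412 and 567 CPM in bifunctional tumors, against 504, 592 and 648 CPM in anti-PD-L1 tumors and Hmmr had 37.7, 55.6 and 69.4 CPM in bifunctional tumors, against 65.5, 72.9 and 88.7 CPM in anti-PD-L1 tumors. In bifunctional tumors 9 libraries for Top2a and 8 for Hmmr were below the whole anti-PD-L1 group, with log2 fold changes of -0.45 ± 0.10 (SE, adjusted p = 0.00957) and -0.44 ± 0.10 (SE, adjusted p = 0.00992).

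DNA replication genes were lower too. Of 52 tested 39 fell and 0 rose, and 21 fell without C0479 and C0484. Pole2, a subunit of the leading strand polymerase, had 11.1, 12.9 and 14.2 CPM in bifunctional tumors, against 15.0, 18.1 and 24.2 CPM in anti-PD-L1 tumors. No bifunctional library reached the lowest anti-PD-L1 library, and the log2 fold change was -0.52 ± 0.081 (SE, adjusted p = 0.00288), or -0.49 (adjusted p = 0.0102) without C0479 and C0484 and -0.48 (adjusted p = 0.0359) without the 4 libraries richest in muscle and keratinocyte genes. Rpa1, which coats single-stranded DNA, had 62.4, 74.5 and 85.3 CPM in bifunctional tumors, against 82.5, 94.0 and 113 CPM in anti-PD-L1 tumors, with 9 bifunctional libraries below the other group and a log2 fold change of -0.37 ± 0.063 (SE, adjusted p = 0.00436). Gins1, a part of the helicase at the fork, had 6.59, 8.28 and 10.3 CPM in bifunctional tumors, against 9.75, 12.1 and 18.2 CPM in anti-PD-L1 tumors, and Pola1, the catalytic subunit of the priming polymerase, had 41.4, 54.1 and 62.7 CPM in bifunctional tumors, against 58.7, 70.1 and 80.7 CPM in anti-PD-L1 tumors. Their log2 fold changes were -0.57 ± 0.10 (SE, adjusted p = 0.00648) and -0.38 ± 0.071 (SE, adjusted p = 0.00670), with 8 and 9 bifunctional libraries under the anti-PD-L1 range. The E2F motif (TTNGCGC, either strand) was in 34.3% of 35 replication promoters, 11.01% of all, 17.1% of those called lower and 6.49% of those called higher. The promoters of Pole2 (chr12:69228141-69228440, minus strand) and Pola1 (chrX:93632106-93632405, minus strand), the 2 falling replication genes of smallest adjusted p with that motif, are shown as above with the E2F motif in capitals:
Pole2: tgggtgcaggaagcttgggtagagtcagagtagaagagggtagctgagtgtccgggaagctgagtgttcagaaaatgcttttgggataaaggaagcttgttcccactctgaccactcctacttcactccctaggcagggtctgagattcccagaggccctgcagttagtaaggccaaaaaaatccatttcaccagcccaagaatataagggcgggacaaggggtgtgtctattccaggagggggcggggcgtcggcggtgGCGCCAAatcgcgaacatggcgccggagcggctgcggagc
Pola1: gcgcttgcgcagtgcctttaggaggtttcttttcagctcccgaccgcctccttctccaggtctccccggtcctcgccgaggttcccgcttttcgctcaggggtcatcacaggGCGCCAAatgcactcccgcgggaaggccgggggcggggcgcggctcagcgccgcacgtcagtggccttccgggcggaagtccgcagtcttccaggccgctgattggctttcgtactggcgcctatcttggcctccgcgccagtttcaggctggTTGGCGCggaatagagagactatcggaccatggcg
Repair genes of homologous recombination and the Fanconi pathway were lower too, with 18 of 30 called lower and 6 without C0479 and C0484. Brca1, which starts that repair at broken ends, had 20.4, 30.6 and 36.7 CPM in bifunctional tumors, against 34.4, 40.1 and 46.8 CPM in anti-PD-L1 tumors. The log2 fold changes were -0.40 (adjusted p = 0.0104) for Brca1, -0.53 (adjusted p = 0.00937) for Fancb of the Fanconi core complex and -0.46 (adjusted p = 0.0123) for the nuclease subunit Eme1.

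Histone genes were lower in bifunctional tumors. Their RNAs are made mainly during DNA synthesis and mostly lack a poly(A) tail, so a library of depleted total RNA can count them. Of 55 tested genes chosen by symbol (Hist names and H1f0, a linker histone also made outside DNA synthesis) 42 fell and 0 rose, with a median of -0.36, and 29 fell without C0479 and C0484. Hist1h2an (chr13:21786826-21787218, minus strand), a gene for histone H2A, had 49.8, 70.2 and 85.6 CPM in bifunctional tumors, against 90.9, 102 and 124 CPM in anti-PD-L1 tumors, and Hist1h2ai (chr13:21716422-21716814, plus strand) had 42.2, 64.3 and 80.1 CPM in bifunctional tumors, against 86.1, 93.3 and 113 CPM in anti-PD-L1 tumors. Neither gene's groups overlapped, and the log2 fold changes were -0.58 ± 0.088 (SE, adjusted p = 0.00255) and -0.57 ± 0.086 (SE, adjusted p = 0.00255). Hist1h2ad and Hist1h2ac changed by -0.57 (adjusted p = 0.00359) and -0.57 (adjusted p = 0.00431). Without the 4 libraries richest in muscle and keratinocyte genes these 4 were the only histone genes called, with log2 fold changes of -0.53 (adjusted p = 0.0172), -0.49 (adjusted p = 0.0111), -0.51 (adjusted p = 0.0308) and -0.49 (adjusted p = 0.0318). Hist1h1c, a linker histone and the most abundant member that did not pass, had 265, 341 and 388 CPM in bifunctional tumors, against 314, 365 and 425 CPM in anti-PD-L1 tumors (log2 fold change -0.12 (adjusted p = 0.236)). Copies of H2A are nearly identical in sequence, so the split of reads between them is uncertain and the 42 falls are not 42 separate measurements.

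Many genes that make, fold and remove protein fell as well. For ribosome biogenesis 30 of 52 fell, for the spliceosome 25 of 46, for the proteasome 23 of 32 and for cytosolic chaperones 19 of 33, with 0 rises in each. Without C0479 and C0484 the falls numbered 11, 10, 10 and 11. Nhp2, which guides RNA modification in the nucleolus, had 37.2, 43.7 and 49.4 CPM in bifunctional tumors, against 50.9, 55.2 and 81.8 CPM in anti-PD-L1 tumors, without overlap and with a log2 fold change of -0.45 ± 0.083 (SE, adjusted p = 0.00648). Srsf1, a splicing factor, had 197, 253 and 282 CPM in bifunctional tumors, against 289, 305 and 359.9 CPM in anti-PD-L1 tumors, also without overlap, at -0.33 ± 0.067 (SE, adjusted p = 0.00759). These 2 genes thus separated the groups completely, at changes well under 2-fold. Psmd14, the deubiquitinase of the proteasome lid, had 81.3, 99.7 and 129.8 CPM in bifunctional tumors, against 122, 131 and 185 CPM in anti-PD-L1 tumors, and Cct3, a subunit of the chaperonin that folds actin and tubulin, had 229, 308 and 395 CPM in bifunctional tumors, against 384, 408 and 579 CPM in anti-PD-L1 tumors. In both cases 9 bifunctional libraries were below the anti-PD-L1 range, and the log2 fold changes were -0.41 ± 0.084 (SE, adjusted p = 0.00788) and -0.49 ± 0.095 (SE, adjusted p = 0.00759). Other falls were -0.38 (adjusted p = 0.00869) for the ribosome assembly factor Ebna1bp2, -0.39 (adjusted p = 0.00759) for the U2 protein Snrpa1, -0.35 (adjusted p = 0.00938) for the proteasome ATPase Psmc4 and -0.40 (adjusted p = 0.00599) for the HSP90 cochaperone Ahsa1. The most abundant members that did not pass were Ncl (nucleolin) at 0.063 (adjusted p = 0.811) and Hsp90ab1 at -0.25 (adjusted p = 0.0866), the second of which was above 0 on uncentred TPM.

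Translation factors had 19 falls among 42 genes (45.2%) and aminoacyl-tRNA synthetases 10 among 20 (50%), against the background of 10.8%. Without C0479 and C0484 the falls numbered 4 (9.52%) and 2 (10%), against the background of 3.04%. Eif2s1, the alpha subunit of the initiation factor eIF2, had 113, 131 and 179 CPM in bifunctional tumors, against 166, 173 and 228 CPM in anti-PD-L1 tumors, with 9 bifunctional libraries below the other group and a log2 fold change of -0.40 ± 0.078 (SE, adjusted p = 0.00759). Farsb and Hars, which charge phenylalanine and histidine tRNA, changed by -0.36 (adjusted p = 0.00992) and -0.28 (adjusted p = 0.0110). Nuclear pore genes had 10 falls and 1 rise among 19, and 7 falls without C0479 and C0484. Nup88 and Nup37 fell, with log2 fold changes of -0.33 (adjusted p = 0.00759) and -0.53 (adjusted p = 0.00979). The one rise was Nup210, a membrane nucleoporin singled out after its values were seen, which had 6.26, 12.8 and 21.6 CPM in bifunctional tumors, against 4.27, 7.68 and 10.8 CPM in anti-PD-L1 tumors. The groups overlapped and its log2 fold change was 0.83 ± 0.19 (SE, adjusted p = 0.0104). The helicase Ddx1, involved in tRNA ligation, had 102, 125 and 153 CPM in bifunctional tumors, against 155, 164 and 183 CPM in anti-PD-L1 tumors, with no overlap, and changed by -0.39 ± 0.066 (SE, adjusted p = 0.00431).

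**Figure D3:**
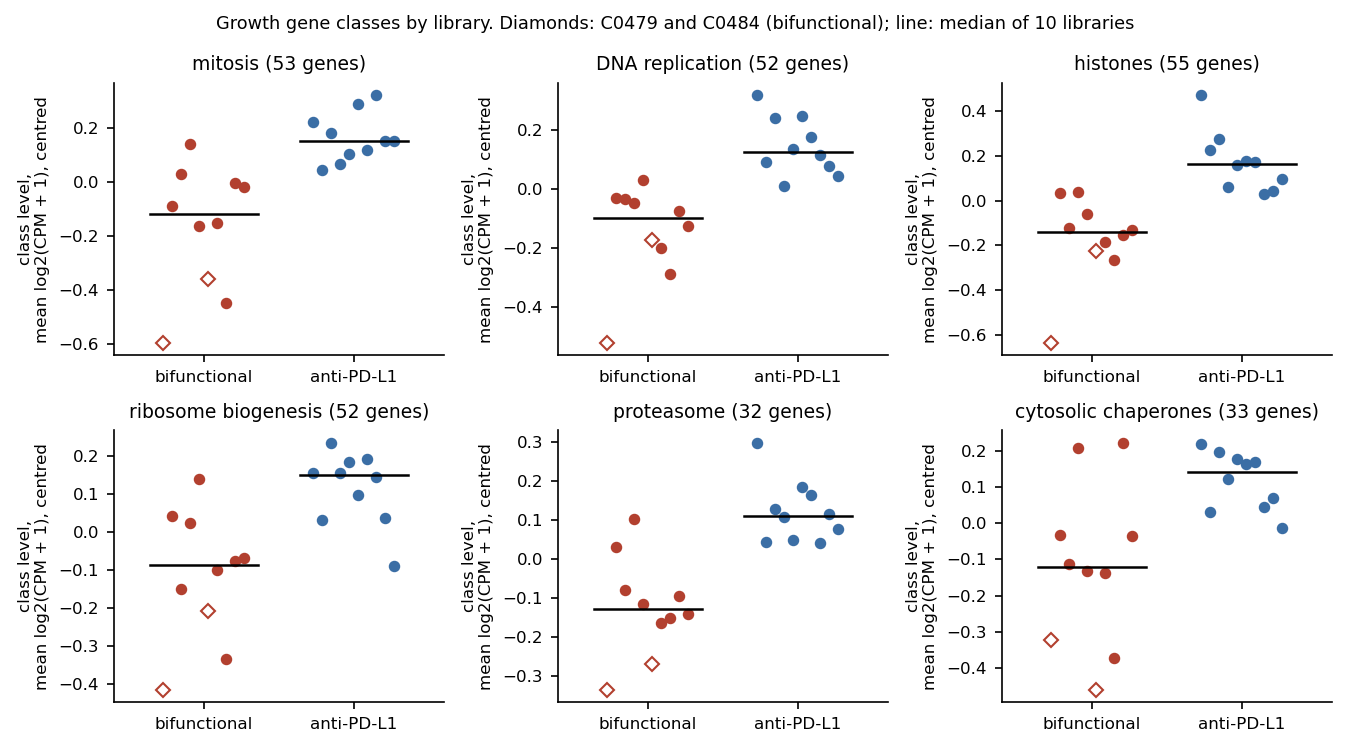
Level of 6 classes in each library, as the mean of log2(CPM + 1) over the tested members, centred on the mean of the 20 libraries, for bifunctional (left) and anti-PD-L1 tumors (right), with group medians as lines. Open diamonds mark C0479 and C0484; on uncentred TPM 1 gene of these classes, a histone gene, was called lower. In the mitosis panel bifunctional libraries run between -0.60 and 0.14 and anti-PD-L1 libraries between 0.046 and 0.32.

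The class levels were low in most bifunctional libraries, and C0479 was the lowest for 5 of the 6 classes, the chaperones being lowest in C0484. For mitosis 9 of 10 bifunctional libraries were below every anti-PD-L1 library, for replication 9, for histones 8, for the proteasome 9 and for ribosome biogenesis 5. Without the 4 libraries richest in muscle and keratinocyte genes 4 histone, 2 mitosis and 1 replication gene were called lower, against 0.0885% of all genes. No ribosome biogenesis, spliceosome, proteasome, chaperone or translation factor gene passed in that fit. Its medians were -0.28 for mitosis, -0.26 for replication, -0.28 for histones, -0.23 for the proteasome and -0.17 for ribosome biogenesis. On the authors' TPM values, uncentred, the falls were nearly all lost: none of the mitosis, replication, proteasome or ribosome biogenesis genes passed, their medians were -0.067, -0.032, -0.012 and 0.013 beside 0.16 over all genes, and 1 histone gene was called lower. The uncentred medians of homologous recombination, spliceosome, translation factor and nuclear pore genes were 0.033, 0.034, 0.063 and 0.013, above 0. After each library was centred on its median, 34 mitosis, 35 replication, 40 histone, 17 proteasome and 22 ribosome biogenesis genes were called lower. The falls are thus relative to the other genes of a library, and a fall in absolute amount was not measured. Immune genes were higher in the same tumors, and the part of that in the falls was not tested.

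Nuclear genes of mitochondria were lower in part with all 20 libraries. Among mitochondrial ribosomal proteins 29 of 77 were called lower with all libraries and 1 without C0479 and C0484, among subunits of complex I 11 of 36 and 1, and among those of complexes II to V 11 of 38 and 2. With all libraries these shares were 37.7%, 30.6% and 28.9%, against a background of 10.8%. Without the 2 libraries they were 1.30%, 2.78% and 5.26%, near or under the background of 3.04%. The median log2 fold changes moved less than the calls. They were -0.21, -0.19 and -0.21 with all libraries and -0.19, -0.17 and -0.18 without the 2, beside 0.019 and 0.012 over all genes. Ndufs1, the largest complex I subunit, had 66.8, 73.9 and 82.0 CPM in bifunctional tumors, against 79.7, 86.0 and 106 CPM in anti-PD-L1 tumors and a log2 fold change of -0.25 ± 0.058 (SE, adjusted p = 0.0116) that was above 0 on uncentred TPM. Mrpl18 changed by -0.33 (adjusted p = 0.0117) and Atp5g1, of the ATP synthase ring, by -0.41 (adjusted p = 0.0134). Transcripts of the mitochondrial genome went the other way, with 3 of 13 called higher and 0 lower, and 0 called without the 2 libraries. Of these mt-Atp8, whose reading frame overlaps a neighbour's, had 20.5, 29.4 and 41.2 CPM in bifunctional tumors, against 16.8, 22.3 and 25.8 CPM in anti-PD-L1 tumors (log2 fold change 0.45 ± 0.12 (SE, adjusted p = 0.0150)). In cholesterol synthesis 9 of 25 genes fell, and 2 without the 2 libraries. These were Fdps, which makes farnesyl diphosphate, and Acat2, which starts the pathway's supply of acetoacetyl-CoA. Fdps had 76.4, 137 and 193 CPM in bifunctional tumors, against 149, 191 and 278 CPM in anti-PD-L1 tumors, and Acat2 had 24.3, 34.7 and 41.9 CPM in bifunctional tumors, against 34.3, 46.4 and 72.8 CPM in anti-PD-L1 tumors. Both overlapped between groups, with log2 fold changes of -0.54 ± 0.14 (SE, adjusted p = 0.0181) and -0.50 ± 0.12 (SE, adjusted p = 0.0123). Among genes of cholesterol efflux and targets of LXR, the sterol-sensing receptor, 7 of 17 rose. The one also called without the 2 libraries was Mylip, the ligase that degrades the LDL receptor, with 13.5, 21.6 and 39.8 CPM in bifunctional tumors, against 12.7, 15.1 and 19.1 CPM in anti-PD-L1 tumors and a log2 fold change of 0.65 ± 0.15 (SE, adjusted p = 0.0119).

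The deepest single falls outside these classes were mostly in genes of low level. Ppfia2, a scaffold of synapses, had 0, 0.271 and 0.954 CPM in bifunctional tumors, against 0.0817, 1.30 and 10.6 CPM in anti-PD-L1 tumors. Its log2 fold change of -2.98 ± 0.80 (SE, adjusted p = 0.0181) came with wide overlap and a wide spread inside the anti-PD-L1 group. Crabp1, a binding protein for retinoic acid, had 0.839, 4.55 and 8.53 CPM in bifunctional tumors, against 4.84, 7.92 and 15.8 CPM in anti-PD-L1 tumors, and Olr1, a scavenger receptor for oxidized LDL, had 0.622, 1.31 and 2.31 CPM in bifunctional tumors, against 1.44, 2.48 and 5.403 CPM in anti-PD-L1 tumors. The groups overlapped for both, at -1.09 ± 0.31 (SE, adjusted p = 0.0219) and -0.95 ± 0.25 (SE, adjusted p = 0.0183). Dusp9, a phosphatase of MAP kinases, had 12.6, 20.4 and 27.9 CPM in bifunctional tumors, against 22.8, 27.7 and 40.5 CPM in anti-PD-L1 tumors, with 8 bifunctional libraries under the other group and a log2 fold change of -0.62 ± 0.14 (SE, adjusted p = 0.00987). The remaining falls named by the rule were Chst8, a sulfotransferase, at -0.95 (adjusted p = 0.0110), the potassium channel subunit Kcne3 at -0.71 (adjusted p = 0.0113), Efcab11 at -0.59 (adjusted p = 0.00788) and the vesicle GTPase Rab27b at -0.57 (adjusted p = 0.00697).

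Genes of the extracellular matrix were among the largest rises in a ranking that left out the immune, muscle, keratinocyte and adipocyte lists. Thbs4 (chr13:92751590-92794818, minus strand), thrombospondin 4 of tendon and healing tissue, had 3.19, 20.2 and 59.4 CPM in bifunctional tumors, against 0.110, 1.52 and 5.49 CPM in anti-PD-L1 tumors. All bifunctional libraries but one were above the highest anti-PD-L1 library, and the log2 fold change was 3.58 ± 0.62 (SE, adjusted p = 0.00436). Smoc2, a calcium-binding matrix protein, had 1.92, 7.83 and 49.2 CPM in bifunctional tumors, against 0.486, 1.41 and 3.05 CPM in anti-PD-L1 tumors, with 8 bifunctional libraries above the other group and a log2 fold change of 3.10 ± 0.53 (SE, adjusted p = 0.00431). Podn, the small proteoglycan podocan, had 4.51, 11.1 and 46.8 CPM in bifunctional tumors, against 1.41, 2.73 and 4.87 CPM in anti-PD-L1 tumors, with 9 bifunctional libraries above the whole anti-PD-L1 group. Its log2 fold change was 2.47 ± 0.38 (SE, adjusted p = 0.00255). Cilp, a cartilage and heart matrix protein that binds TGF-β, had 50.00, 105 and 313 CPM in bifunctional tumors, against 17.5, 37.2 and 73.8 CPM in anti-PD-L1 tumors and changed by 1.76 ± 0.29 (SE, adjusted p = 0.00409), again with 9 libraries clear of the other group. Ccn3, of the family of matricellular signalling proteins, had 12.8, 33.2 and 91.2 CPM in bifunctional tumors, against 3.89, 8.71 and 21.5 CPM in anti-PD-L1 tumors and changed by 2.09 ± 0.39 (SE, adjusted p = 0.00670), with 6 libraries clear. Counted over matricellular proteins, a list drawn up after their values were seen, 6 of 20 rose (background 11.4%) and 5 without C0479 and C0484 (background 1.92%). Sparc, the most abundant member that did not pass, changed by 0.15 (adjusted p = 0.412).

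Elastic fibre genes rose in 8 of 19 cases, with a median of 0.55, and in 2 without the 2 libraries. Those were Mfap4, a microfibril protein, with 10.2, 17.7 and 60.7 CPM in bifunctional tumors, against 2.87, 5.197 and 10.5 CPM in anti-PD-L1 tumors, and Eln, elastin itself, with 4.55, 31.5 and 119 CPM in bifunctional tumors, against 3.80, 8.30 and 32.4 CPM in anti-PD-L1 tumors. For Mfap4 9 bifunctional libraries were above the anti-PD-L1 range and for Eln 5, and the log2 fold changes were 2.17 ± 0.34 (SE, adjusted p = 0.00288) and 2.21 ± 0.51 (SE, adjusted p = 0.0108). Fbn2 and Fbln1, fibrillin 2 and fibulin 1, changed by 1.47 (adjusted p = 0.0150) and 1.10 (adjusted p = 0.0133), and Fbln2, the most abundant member that did not pass, had 725, 984 and 1316 CPM in bifunctional tumors, against 602, 913 and 1249.8 CPM in anti-PD-L1 tumors (log2 fold change 0.14 (adjusted p = 0.403)). Of 33 collagens 7 rose, and 3 without the 2 libraries, namely Col11a1, Col8a2 and Col10a1. On centred log2(TPM + 1) 1 collagen was called higher and 1 lower. Col11a1, a minor fibril collagen, had 2.67, 11.9 and 113 CPM in bifunctional tumors, against 2.49, 3.98 and 6.09 CPM in anti-PD-L1 tumors, and Col8a2, a short-chain collagen, had 4.96, 12.2 and 47.0 CPM in bifunctional tumors, against 2.06, 3.49 and 7.06 CPM in anti-PD-L1 tumors. In each 8 bifunctional libraries exceeded the other group, and the log2 fold changes were 2.39 ± 0.51 (SE, adjusted p = 0.00937) and 1.92 ± 0.36 (SE, adjusted p = 0.00670). Col1a1, the main fibril collagen, had 1339.7, 2980.1 and 7598 CPM in bifunctional tumors, against 603, 1828 and 2675 CPM in anti-PD-L1 tumors, with a log2 fold change of 0.95 ± 0.29 (SE, adjusted p = 0.0271) that did not pass without the 2 libraries, at 0.63 (adjusted p = 0.128), and Col3a1 changed by 0.53 (adjusted p = 0.135). Loxl4, a collagen crosslinking oxidase, fell, with 30.5, 40.6 and 51.1 CPM in bifunctional tumors, against 44.9, 51.9 and 69.0 CPM in anti-PD-L1 tumors and a log2 fold change of -0.41 ± 0.095 (SE, adjusted p = 0.0111).

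Some receptors and proteases of matrix rose as well. Itga11, the collagen receptor chain of fibroblasts, had 2.62, 7.56 and 25.1 CPM in bifunctional tumors, against 0.741, 1.29 and 4.83 CPM in anti-PD-L1 tumors, and Itgbl1, an integrin-like secreted protein, had 7.20, 27.3 and 64.6 CPM in bifunctional tumors, against 3.67, 9.16 and 16.7 CPM in anti-PD-L1 tumors. Their log2 fold changes were 2.47 ± 0.47 (SE, adjusted p = 0.00714) and 1.74 ± 0.32 (SE, adjusted p = 0.00649), and 6 and 9 bifunctional libraries were above the anti-PD-L1 range. Among ADAMTS proteases and their relatives 7 of 21 rose and 3 without the 2 libraries. On centred log2(TPM + 1) 1 was called higher and the median was 0.034 beside -0.071 over all genes. On TMM counts the medians were 0.39 and 0.019. Adamts17 had 0.0437, 1.40 and 5.15 CPM in bifunctional tumors, against 0.202, 0.263 and 0.659 CPM in anti-PD-L1 tumors and Adamtsl2, which binds microfibrils, had 0.131, 1.96 and 11.8 CPM in bifunctional tumors, against 0.221, 0.506 and 1.14 CPM in anti-PD-L1 tumors. For both, 1 bifunctional library was below every anti-PD-L1 library and 5 and 6 were above, with log2 fold changes of 2.45 ± 0.53 (SE, adjusted p = 0.00970) and 2.31 ± 0.54 (SE, adjusted p = 0.0117), and Adamts17 was slightly below 0 on centred log2(TPM + 1). Among proteoglycans 6 of 26 rose and 1 fell (Hyal2, a hyaluronidase named after its values were seen, at -0.22 (adjusted p = 0.0398) and above 0 on uncentred TPM), and Fmod (fibromodulin) and Bgn (biglycan) were the 2 called without the 2 libraries. Fmod had 1.71, 7.27 and 32.2 CPM in bifunctional tumors, against 1.17, 2.46 and 3.93 CPM in anti-PD-L1 tumors (log2 fold change 2.07 ± 0.43 (SE, adjusted p = 0.00867)), while the abundant Bgn had 134, 275 and 606 CPM in bifunctional tumors, against 87.7, 137 and 243 CPM in anti-PD-L1 tumors (log2 fold change 1.07 ± 0.25 (SE, adjusted p = 0.0119)). Timp3, an inhibitor of matrix proteases, changed by 1.35 (adjusted p = 0.00957), Mmp2 by 0.87 (adjusted p = 0.0219) and Aspn by 1.31 (adjusted p = 0.0161). Without the 2 libraries Timp3 passed at 1.04 (adjusted p = 0.0331). Mmp2 and Aspn did not, at 0.66 (adjusted p = 0.0931) and 1.15 (adjusted p = 0.0588).

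On centred log2(TPM + 1), where 2.58% of all genes were called higher, the rises in matrix classes were fewer. There were 4 among matricellular proteins, 4 among elastic fibre genes, 4 among proteoglycans and 3 among the fibroblast markers given below.

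**Figure D4:**
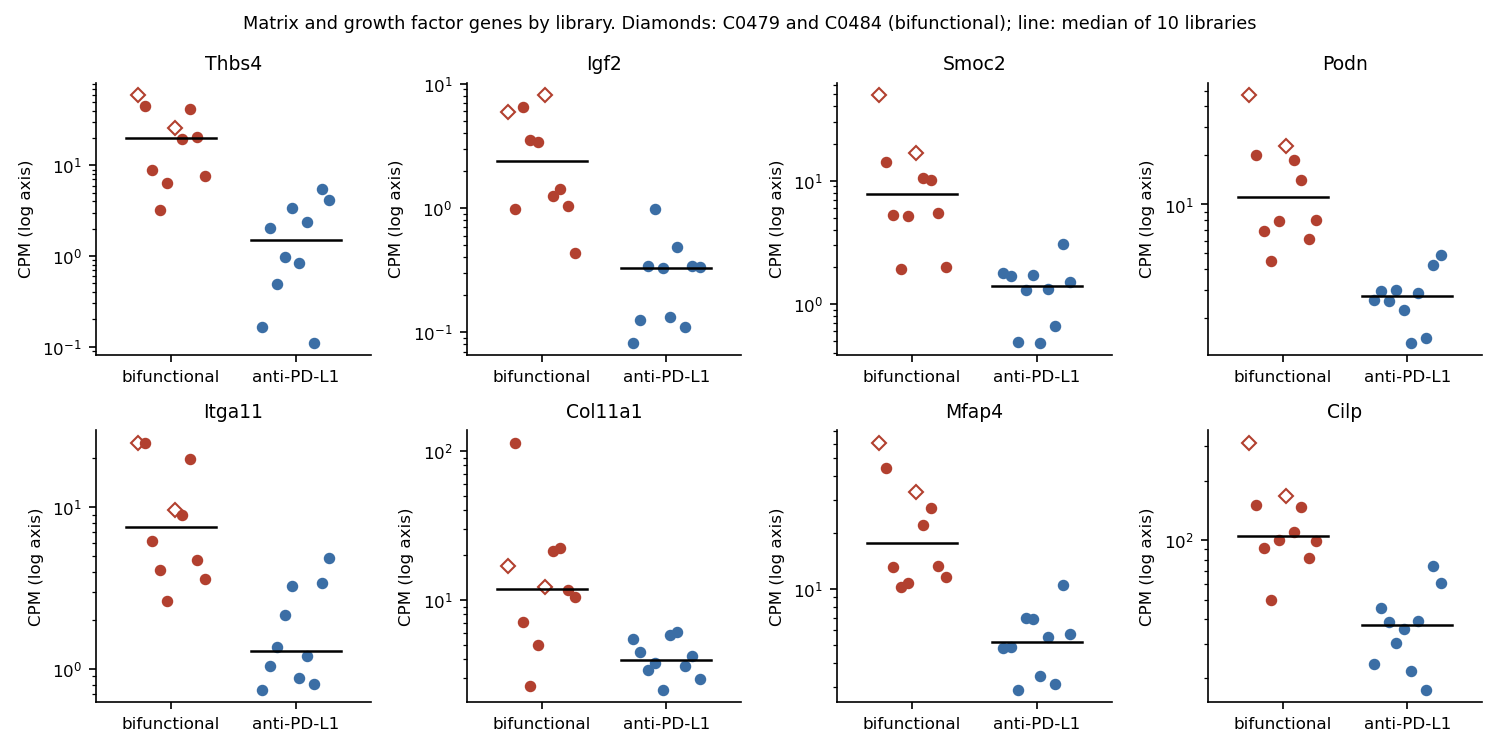
CPM of 8 genes on log axes in each bifunctional (left) and anti-PD-L1 (right) library, with group medians as lines and open diamonds for C0479 and C0484. C0479 is highest for Thbs4, Smoc2, Podn, Mfap4 and Cilp, and the bifunctional median is above every anti-PD-L1 library in all 8 panels.

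Fibroblast genes were in part higher, which stands beside the matrix results. Of 21 fibroblast markers 6 rose and 0 fell, 2 without the 2 libraries. The list shares members with the elastic fibre list, among them Fbln1, called higher, and Fbln2, which did not pass. The counts of the fibroblast and elastic fibre lists are therefore not separate results. The summed level of the list ran from 2258 to 4959.8 CPM in bifunctional and from 1914 to 3877 CPM in anti-PD-L1 libraries, and Pdgfra, a defining marker, was above 0 in all 20. The part of fibroblast content in the matrix rises was not tested. Pdgfra, the fibroblast receptor for PDGF, had 139.6, 177 and 368 CPM in bifunctional tumors, against 92.5, 105 and 194 CPM in anti-PD-L1 tumors and a log2 fold change of 0.77 ± 0.18 (SE, adjusted p = 0.0109). Igf1, a growth factor that fibroblasts and macrophages make, had 17.8, 41.6 and 111 CPM in bifunctional tumors, against 10.5, 14.4 and 36.2 CPM in anti-PD-L1 tumors and changed by 1.52 ± 0.33 (SE, adjusted p = 0.00957). Igf2 (chr7:142650766-142666816, minus strand), the fetal growth factor of the same family, had 0.437, 2.41 and 8.06 CPM in bifunctional tumors, against 0.0824, 0.330 and 0.983 CPM in anti-PD-L1 tumors. In 9 bifunctional libraries it was above the highest anti-PD-L1 library, and the log2 fold change was 3.30 ± 0.54 (SE, adjusted p = 0.00347). Reads of an antisense transcript at Igf2 could be among its counts, since the strand setting of the counting is not given in the sources used here.

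Other imprinted genes, expressed from 1 parental copy, were looked at after Igf2 and Plagl1 had been seen. In that list 7 of 20 rose and 0 fell, and without C0479 and C0484 2 rose, which were Igf2 and Plagl1, while centred log2(TPM + 1) called 2 higher. Plagl1, a zinc finger regulator of growth, had 0.961, 3.61 and 17.3 CPM in bifunctional tumors, against 0.257, 0.622 and 2.41 CPM in anti-PD-L1 tumors, with a log2 fold change of 2.53 ± 0.56 (SE, adjusted p = 0.00992). H19, the noncoding RNA beside Igf2, had 4.51, 16.6 and 146 CPM in bifunctional tumors, against 2.12, 3.91 and 23.6 CPM in anti-PD-L1 tumors. It overlapped between groups, changed by 2.69 ± 0.67 (SE, adjusted p = 0.0142) and did not pass without the 2 libraries, at 1.66 (adjusted p = 0.0808). Cdkn1c, an inhibitor of cyclin-dependent kinases, changed by 1.82 (adjusted p = 0.0187).

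The remaining largest rises outside the immune, muscle, keratinocyte and adipocyte lists were Angptl1, Cttnbp2 and Ackr4. Angptl1, a secreted angiopoietin-like protein, had 0.437, 2.60 and 11.1 CPM in bifunctional tumors, against 0.221, 0.530 and 1.45 CPM in anti-PD-L1 tumors. Cttnbp2, a cortactin-binding protein, had 0.357, 0.612 and 8.07 CPM in bifunctional tumors, against 0.126, 0.277 and 0.453 CPM in anti-PD-L1 tumors. Ackr4, a scavenging receptor for CCL19 and CCL21, had 0.373, 0.573 and 7.47 CPM in bifunctional tumors, against 0.0817, 0.247 and 0.416 CPM in anti-PD-L1 tumors. For Cttnbp2 and Ackr4 the highest bifunctional library was C0479, far above the others, and the log2 fold changes of 2.37 (adjusted p = 0.0117) and 2.32 (adjusted p = 0.0119) dropped to 1.28 (adjusted p = 0.0378) and 1.27 (adjusted p = 0.0213) without C0479 and C0484. Both were slightly below 0 on centred log2(TPM + 1), where the median over all genes was -0.071. Angptl1 changed by 2.42 ± 0.52 (SE, adjusted p = 0.00957). Cyp1b1, an oxidase of stroma, had 22.6, 42.5 and 152 CPM in bifunctional tumors, against 8.48, 14.5 and 32.3 CPM in anti-PD-L1 tumors, and Gpx3, a secreted glutathione peroxidase, had 12.1, 35.0 and 188 CPM in bifunctional tumors, against 6.35, 13.1 and 25.7 CPM in anti-PD-L1 tumors. They changed by 1.85 ± 0.36 (SE, adjusted p = 0.00736) and 2.01 ± 0.41 (SE, adjusted p = 0.00776), with 7 and 8 bifunctional libraries above the other group. Vwf, the clotting factor of vessel walls, changed by 1.53 (adjusted p = 0.00976) and was the only one of 26 endothelial genes called without the 2 libraries.

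**Figure D5:**
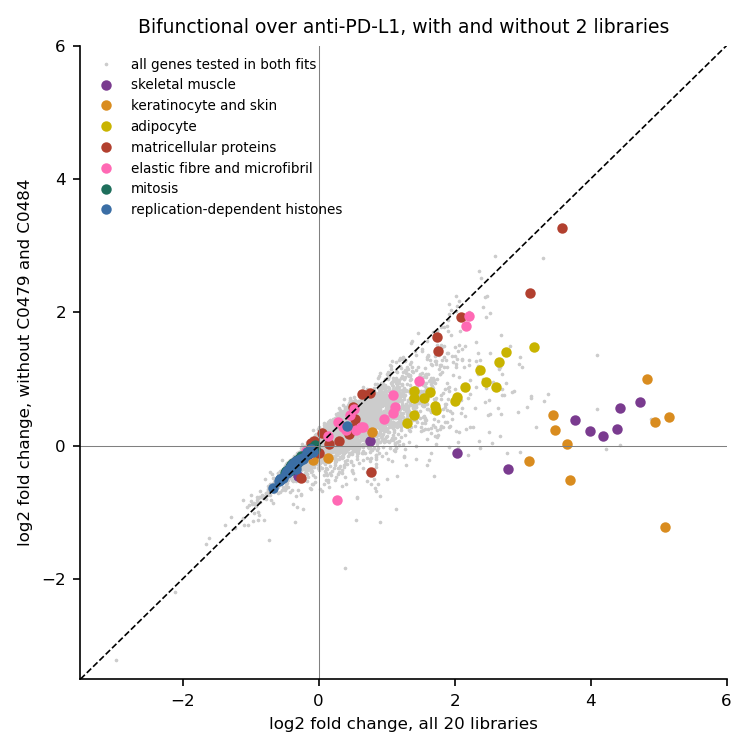
Log2 fold change of bifunctional over anti-PD-L1 tumors with all 20 libraries (horizontal) and without C0479 and C0484 (vertical) for every gene tested in both fits (grey) and members of 7 classes (coloured), with equality as a dashed line. Acta1, a muscle gene, lies at 4.38 on the horizontal and 0.24 on the vertical axis, while Thbs4 lies at 3.58 and 3.26.

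Genes of the circadian clock were higher in part. Of 21 tested 10 rose and 0 fell, and 5 rose without C0479 and C0484. On centred log2(TPM + 1) 1 was called higher and the median was 0.031 beside -0.071 over all genes. On TMM counts the medians were 0.32 and 0.019, so the class rise was smaller on the centred scale. Per3, a repressor of the clock, had 3.32, 3.85 and 8.67 CPM in bifunctional tumors, against 1.81, 2.76 and 3.35 CPM in anti-PD-L1 tumors, and Dbp, an output factor, had 2.49, 4.24 and 9.35 CPM in bifunctional tumors, against 1.27, 2.01 and 3.66 CPM in anti-PD-L1 tumors. For Per3 9 bifunctional libraries and for Dbp 7 were above every anti-PD-L1 library, with log2 fold changes of 0.87 ± 0.18 (SE, adjusted p = 0.00937) and 1.07 ± 0.23 (SE, adjusted p = 0.00976). Tef, a relative of Dbp, had 22.1, 28.1 and 42.7 CPM in bifunctional tumors, against 16.8, 21.4 and 26.7 CPM in anti-PD-L1 tumors and changed by 0.45 ± 0.10 (SE, adjusted p = 0.0109), and Per2 by 0.81 (adjusted p = 0.0118). On centred log2(TPM + 1) Per3 and Per2 were slightly below 0. The E-box (CACGTG) was in 27.3% of 11 clock promoters and 10.1% of all.

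Lysosome genes had 13 rises and 0 falls among 49, with a small median of 0.19, and 11 rises on centred log2(TPM + 1). The 2 also called without the 2 libraries were Gm2a, the activator of ganglioside breakdown, and Idua, which cleaves glycosaminoglycans. Gm2a had 32.5, 46.1 and 78.4 CPM in bifunctional tumors, against 24.6, 32.3 and 38.5 CPM in anti-PD-L1 tumors, and Idua had 5.19, 6.15 and 8.83 CPM in bifunctional tumors, against 4.07, 4.75 and 5.45 CPM in anti-PD-L1 tumors. In 8 and 9 bifunctional libraries they exceeded the anti-PD-L1 range, and the log2 fold changes were 0.66 ± 0.14 (SE, adjusted p = 0.00788) and 0.48 ± 0.11 (SE, adjusted p = 0.00992). Ctsb, cathepsin B and the most abundant member that did not pass, changed by 0.19 (adjusted p = 0.180). Of 35 lysosome promoters 31.4% held the E-box, against 10.1% of all, as a description. Subunits of the V-ATPase, which acidifies the same organelle, had 0 rises and 0 falls among 18 in the edgeR test.

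In the Wnt pathway 11 of 45 genes rose and 1 fell, 3 rising without the 2 libraries. On centred log2(TPM + 1) 2 were called higher and 1 lower, against 2.58% and 9.7% of all genes. On that scale 28 of 45 were below 0, and the median was -0.054 beside -0.071 over all genes. Lgr5, a receptor for R-spondin, had 0.839, 3.02 and 6.55 CPM in bifunctional tumors, against 0.782, 0.955 and 1.91 CPM in anti-PD-L1 tumors, and Sfrp1, a secreted Wnt antagonist, had 15.0, 51.9 and 119 CPM in bifunctional tumors, against 10.9, 18.1 and 38.9 CPM in anti-PD-L1 tumors. Their log2 fold changes were 1.61 ± 0.32 (SE, adjusted p = 0.00759) and 1.59 ± 0.34 (SE, adjusted p = 0.00938), with 7 and 5 bifunctional libraries above the other group. Rnf43, the ligase that removes Wnt receptors, changed by 1.97 (adjusted p = 0.0100), and on centred log2(TPM + 1) Lgr5 and Rnf43 were slightly below 0. Known targets of TGF-β and SMAD proteins showed 4 rises and 0 falls among 30, and the 13.3% that rose was near the background of 11.4%. Without C0479 and C0484 2 were called higher (6.67%, background 1.92%). The risers included Nox4, an oxidase of fibroblasts, with 2.62, 6.72 and 14.4 CPM in bifunctional tumors, against 1.80, 2.99 and 4.95 CPM in anti-PD-L1 tumors (log2 fold change 1.34 ± 0.29 (SE, adjusted p = 0.00970)), and Ccn2, connective tissue growth factor, with 45.7, 135 and 185 CPM in bifunctional tumors, against 43.4, 84.3 and 111 CPM in anti-PD-L1 tumors (log2 fold change 0.64 ± 0.23 (SE, adjusted p = 0.0479)). The groups overlapped for both. Ski, a repressor of SMAD proteins, changed by 0.29 (adjusted p = 0.0385), and Fn1, fibronectin, by 0.15 (adjusted p = 0.435) without passing.

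Several classes stayed near or under the background. Glycolysis genes had 1 rise and 2 falls among 23, and hypoxia targets 1 rise among 28, with medians of -0.013 and 0.042. Zinc finger genes of the Zfp family had 23 rises and 3 falls among 338. Some other classes lost every call without C0479 and C0484, among them Hox genes and genes of epithelial junctions. With all libraries Hox genes had 6 rises among 21, such as Hoxc6 at 0.79 (adjusted p = 0.0172), and junction genes 8 rises and 1 fall among 26. Their medians were 0.64 and 1.01 with all libraries and 0.34 and 0.16 without the 2, beside 0.019 and 0.012 over all genes. Long intergenic RNA genes had 41 rises and 6 falls among 260.

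Of the 28 genes whose groups did not overlap, 4 of the 7 that were higher are on the immune lists, and the other 3, named after their values were seen, were Zfp36l1, Clec11a and Neil1. Zfp36l1, which speeds decay of short-lived RNAs, had 71.6, 81.2 and 114 CPM in bifunctional tumors, against 43.5, 64.3 and 71.4 CPM in anti-PD-L1 tumors (log2 fold change 0.46 ± 0.094 (SE, adjusted p = 0.00798)). Clec11a, a secreted bone and blood growth factor, had 2.70, 3.89 and 10.7 CPM in bifunctional tumors, against 1.29, 1.80 and 2.59 CPM in anti-PD-L1 tumors (log2 fold change 1.43 ± 0.24 (SE, adjusted p = 0.00436)), and Neil1, a base excision glycosylase, changed by 0.50 ± 0.13 (SE, adjusted p = 0.0168). The 21 that were lower included Pole2, Mad2l1, Nhp2, Srsf1, Ddx1, Hist1h2an and Hist1h2ai, described above, and Slc25a14, a mitochondrial carrier, at -0.40 ± 0.085 (SE, adjusted p = 0.00943). Among the 47 genes called without the 4 libraries richest in muscle and keratinocyte genes, 14 are on the immune lists, 20 others rose and 13 fell. The risers included Thbs4 at 3.41 (adjusted p = 0.0359), Smoc2 at 2.34 (adjusted p = 0.0280), Podn at 2.02 (adjusted p = 0.0111), Mfap4 at 1.87 (adjusted p = 0.0196), Cilp at 1.46 (adjusted p = 0.0337), Igf2 at 2.47 (adjusted p = 0.0359), Col11a1 at 2.75 (adjusted p = 0.0466), Col8a2 at 2.00 (adjusted p = 0.0468), Itgbl1 at 1.83 (adjusted p = 0.0466) and Gpx3 at 1.37 (adjusted p = 0.0359).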

How the data were processed

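Whole EMT-6 tumors were sequenced as total RNA after ribosomal depletion, and the authors deposited expected counts and TPM per gene. RSEM 1.2.31, Bowtie2 2.3.1 and the mm10 build are named in the submitters' processing notes. The strand setting of the counting is not given in the sources used here, so overlapping and antisense genes cannot be told apart, and near-identical copies are uncertain.

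Expected counts of the 20 libraries, 22793641 to 27658217 each, were rounded to whole numbers and tested with edgeR 4.0.16 (quasi-likelihood, TMM, default low-count filter, R 4.3.3), adjusted by Benjamini-Hochberg over all 14592 genes at 0.05. The SE of an edgeR log2 fold change was derived as its absolute value divided by the square root of the test's F statistic. The authors deposited TPM values that were tested with limma 3.58.1 on log2(TPM + 1), and DESeq2 1.42.0 was an alternative. Library properties were compared by two-sided permutation tests of 100000 resamples (Python 3.11.15, scipy 1.17.1). The labels number the libraries and say nothing of shared animals, so p-values measure the spread between these samples. On simulated counts 93 of 100 genes changed 2-fold and 97 of 100 changed 4-fold were recovered, and 12 unchanged genes were called. Changes under 2-fold, as in most of the falls described, and libraries rich in host tissue were not simulated. Within the groups, no 2 libraries were duplicates over the 90 pairs compared; pairs between groups were not compared. Named genes were the 12 largest rises and 12 largest falls among called genes of at least 1 CPM, called also without C0479 and C0484. This ranking left out the immune, muscle, keratinocyte and adipocyte lists. It also left out predicted genes, RIKEN clones, small RNAs, pseudogenes and immunoglobulin and T cell receptor segments. Up to 4 members per class were named too, with the abundant member that did not pass. Top2a, Hmmr, Nup210, Zfp36l1, Clec11a, Neil1, Hyal2 and Epcam were named after their values were seen. The gene classes and lists were chosen with earlier results of these data known, and 2 lists (matricellular proteins, imprinted genes) after values were seen. Promoters are from RefSeq, GRCm38.p6. Alternatives were other scalings and filters, TPM, all 40 libraries, host tissue covariates and leaving out libraries.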

Additional observations from a re-analysis of the deposited data

Results flagged for a closer look

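Single libraries stood far from the other 9 of their group, by Dixon's gap test, in 31 of 332 sets of values examined (9.34%). The test's chance rate of about 1 in 20 is for independent sets of normally spread values. These sets overlap, since Krt5, Krt14 and the keratinocyte level and share were each counted, so that rate cannot be set against the 9.34%. C0479 accounted for 10 of the 31 and C0484 for 2. The bifunctional library C0479 stood apart for Eme1 at 3.32 CPM (next library 4.64), Cttnbp2 at 8.07 CPM (next library 1.57) and Ackr4 at 7.47 CPM (next library 0.951). In C0479 this also held for Zfp36l1 at 114 CPM (next library 91.6), Krt5 at 478.8 CPM (next library 16.3) and Krt14 at 564 CPM (next library 10.8). In C0479 this also held for the level of keratinocyte and skin at 5.12 on the centred log2 scale (next 0.69), the level of replication-dependent histones at -0.64 on the centred log2 scale (next -0.27) and the level of epithelial junctions and desmosomes at 1.92 on the centred log2 scale (next 0.67). In C0479 this also held for the share of counts in keratinocyte genes at 0.761% (next 0.0141%). The anti-PD-L1 library C0471 stood apart for Nup210 at 4.27 CPM (next library 6.95) and Chst8 at 3.402 CPM (next library 1.90). The anti-PD-L1 library C0469 stood apart for Eif2s1 at 228 CPM (next library 194), Rnf43 at 0.906 CPM (next library 0.492) and Ski at 61.0 CPM (next library 85.1). In C0469 this also held for the level of mitochondrial ribosomal proteins at 0.38 on the centred log2 scale (next 0.17), the level of respiratory complexes II to V at 0.44 on the centred log2 scale (next 0.16) and 19778 genes detected (next 19444). The anti-PD-L1 library C0472 stood apart for Igf2 at 0.983 CPM (next library 0.484). The bifunctional library C0483 stood apart for Itgbl1 at 7.20 CPM (next library 22.9) and the level of TGF-beta and SMAD targets at -0.52 on the centred log2 scale (next 0.063). The anti-PD-L1 library C0478 stood apart for Lgr5 at 1.91 CPM (next library 1.27), Gata3 at 0.166 CPM (next library 0.898) and the level of Hox genes at 0.13 on the centred log2 scale (next -0.063). The anti-PD-L1 library C0475 stood apart for Acta1 at 77.2 CPM (next library 1.02), Mylpf at 10.6 CPM (next library 0.416) and Ryr1 at 17.5 CPM (next library 0.697). In C0475 this also held for the level of skeletal muscle at 1.93 on the centred log2 scale (next -0.81) and the share of counts in muscle genes at 0.0776% (next 0.0157%). The bifunctional library C0484 stood apart for the share of counts in muscle genes at 1.07% (next 0.488%) and the share of counts in adipocyte genes at 0.334% (next 0.0985%).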

How the results depend on the processing

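With 3233 genes called, DESeq2 size factors gave 3152, no low-count filter 2992, a mean of at least 1 CPM 3106, DESeq2's own test 3819 and the structural RNA share as a covariate 3498. All 40 libraries in the fit gave 1970 genes, of which 607 were lower. Centred log2(TPM + 1) gave 1793, of which 377 were higher, while log2(TPM + 1) and log2(TPM + 0.1), uncentred, called 39 and 41 genes lower. Without the 2 libraries richest in muscle and keratinocyte genes 727 were called, 281 higher and 446 lower, and without the 4 richest 47, 34 higher and 13 lower. Without the 2 richest of each group the counts were 76, 42 higher and 34 lower, and with host tissue covariates 931, 372 higher and 559 lower. At an unadjusted p under 0.05 there were 5656 genes with all libraries and 3072 without the 4 richest. Leave-one-out fits called 1662 to 4434 genes, 718 to 2487 higher and 869 to 1947 lower.

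On uncentred log2(TPM + 1) and log2(TPM + 0.1) the signs of Mki67 (0.18 and 0.20), Hist1h1c (0.15 on both), Hsp90ab1 (0.018 on both) Ndufs1 (0.026 and 0.027) and Hyal2 (0.060 and 0.070) were reversed. On centred log2(TPM + 1) so were Adamts17 at -0.052, Cttnbp2 at -0.077, Ackr4 at -0.023, Per3 at -0.0095, Per2 at -0.089, Lgr5 at -0.0021 and Rnf43 at -0.0043. The median over all genes on that scale was -0.071, and of these genes only Cttnbp2 and Per2 were below it. With host tissue covariates Krt14 was at -0.0044, Adipoq at -0.51, Plin1 at -0.14 and Epcam at -0.0092. The cause was not tested. No paired analysis was possible because the libraries of the 2 groups share no replicate numbers. Depth limits low genes such as Igf2 and Ppfia2, whose levels in some libraries were under 1 CPM.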
